A study of Brassica napus with 48 samples.

Results

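In rapeseed flower buds, 81 of 22746 probe sets on an Arabidopsis array were higher in middle than in small fertile buds and then held that level in large fertile buds. They were chosen by values of the fertile buds. In each of the fertile lines J10B and J03B, on the scale log2(signal + 113), the middle buds had to exceed the small buds by at least 0.8. The large buds had to lie within 0.6 of the middle buds, and the mean signal of the middle buds had to reach 500. Of the 81 members, 37 had 1 gene in the given array annotation and 44 were unnamed here. Sterile buds took no part in the choice.

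The study set 2 male-sterile two-type lines of Brassica napus side by side, each with sterile and fertile plants. J10A buds came from sterile plants of genotype MsMsrfrf, J03A buds from sterile plants of genotype Msmsrfrf, J10B buds from fertile plants of genotype MsMsRfrf, and J03B buds from fertile plants of genotype msmsrfrf. Both J10 genotypes carry the sterility allele Ms on both copies, and fertile J10B differs from sterile J10A in the restorer Rf, whereas fertile J03B differs from sterile J03A in lacking Ms. Small buds (under 1 mm) were at the tetrad stage, middle buds (1 to 3 mm) at the uninucleate stage and large buds (over 3 mm) at the trinucleate stage, so 12 groups of 4 arrays were measured. Each of the 12 groups had 2 replicates with 2 hybridisations each, as the titles were read here. Buds held stamens and pistils, were taken from several field plants of a line, and were hybridised as bulk RNA, in which fewer cells of a type and less RNA per cell cannot be told apart. The probes were designed for Arabidopsis. A signal therefore compares samples for 1 probe set only, and a difference between J10 and J03 can also come from their sequences or gene copies, which was not tested.

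Small buds at the tetrad stage hold anthers with an active tapetum, the secretory cell layer that feeds the microspores. The tapetum makes enzymes for the sporopollenin precursors of the pollen wall and for the phenolic and lipid coat of the grain, and it breaks down as pollen matures. Genic male sterility often acts through the tapetum or the microspore wall. Roles given below are those of the Arabidopsis genes that the probes were made for. Promoter, protein and probe sequences were not used here.

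In middle buds the members stood lower in sterile J10A than in sterile J03A. The median member of J10A stood at 9.14 ± 0.02 in small, 9.71 ± 0.15 in middle and 9.85 ± 0.26 in large buds (log2(signal + 113), SD, n = 2 replicates). In J03A it stood at 9.35 ± 0.07 in small, 10.46 ± 0.07 in middle and 10.10 ± 0.26 in large buds. In fertile J10B the 3 levels were 9.18 ± 0.05, 10.45 ± 0.07 and 10.49 ± 0.09, and in fertile J03B they were 9.32 ± 0.04, 10.69 ± 0.08 and 10.53 ± 0.11. J10A middle buds therefore lay below every other group of middle buds, with no overlap of replicates, while J03A middle buds overlapped J10B middle buds. The fertile levels follow from the rule, and they and their distance from the sterile levels are a description.

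**Figure D1:**
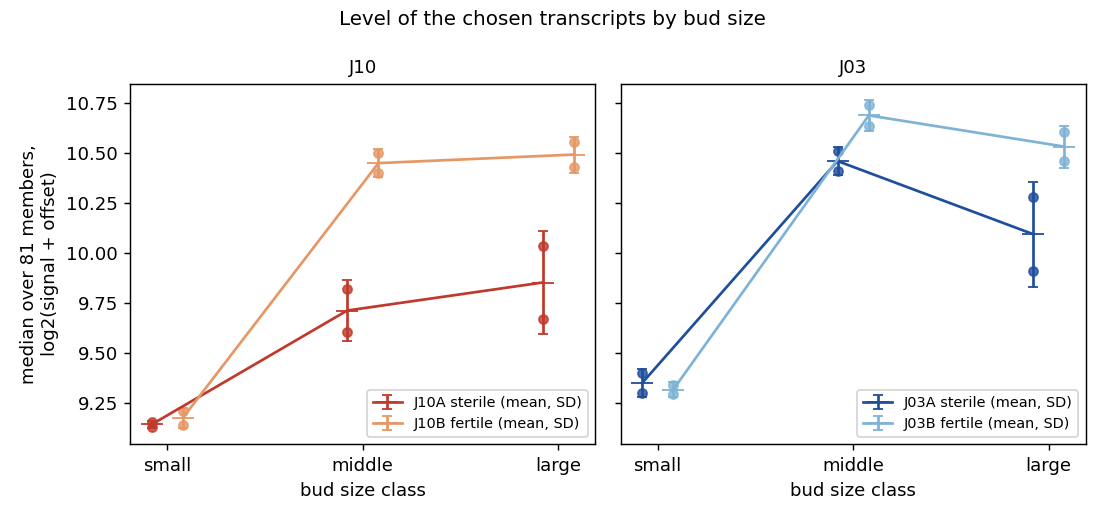
The median over the 81 members in each replicate (points) with the mean and SD of the 2 replicates, on the scale log2(signal + 113), against bud size class, for J10 on the left and J03 on the right. Sterile J10A buds reached 9.71 at the middle stage against 10.45 in fertile J10B buds, whereas sterile J03A buds reached 10.46 against 10.69 in fertile J03B buds and were at 10.10 in large buds.

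In sterile J10A, 6 of the 81 members rose between small and middle buds by limma at an adjusted p under 0.05. Of the 13999 probe sets tested, 0.364% were called higher in that comparison. The median change of the members was 0.41 on the log2 scale (lowest -0.56, highest 2.19), against -0.02 over all probe sets tested, and 74 of 81 changes were positive. In sterile J03A, 35 of 81 members rose, where 1.29% of all probe sets tested were called higher. The median change was 1.05 (lowest -0.30, highest 4.80), against -0.01 over all probe sets tested, and 79 of 81 were positive. With 2 replicates per group the counts rested on each of them. Leaving out a replicate also lowered the share of all probe sets tested that were called, so a lower count was not particular to the members. Without replicate 1 of J03A the J03A count was 18 and without replicate 2 it was 12, and 9 members were called both times. The J10A count was 1 without replicate 1 of J10A and 2 without replicate 2, and 0 of the 6 were called both times.

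Of the 6 members called higher in J10A, 5 were also called in J03A, and of the 51 probe sets called higher in J10A over all those tested, 39 were. Calls in both lines covered 5 members and 0.279% of all probe sets tested, calls in J03A alone 30 members and 1.01%, and calls in J10A alone 1 member, AT2G20870, and 0.0857%. The change was larger in J03A for 68 of 81 members. The test of the difference between the lines' changes called 3 members, all with the smaller change in J10A, where 0.0929% of all probe sets tested were called in that direction. At an unadjusted p under 0.05 that test held 30 members, and 866 of the 13999 probe sets tested. None of the 3 calls held without every 1 of the 4 sterile replicates in turn.

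After the middle stage the sterile lines ran in opposite directions at the median. From middle to large buds no J10A member was called by limma, where 0.0714% of all probe sets tested were, with 13 members and 903 of all probe sets tested at an unadjusted p under 0.05, and the median change was 0.15 with 50 of 81 positive. In J03A 1 member fell, AT5G62960, where 0.286% of all probe sets tested were called lower, and the median change was -0.41 with 14 of 81 positive. By replicate the median was 0.05 and 0.17 in J10A and -0.46 and -0.32 in J03A. The fertile lines, where the rule bounds this change, also stood apart, so a lower median in J03 was not particular to sterile buds. Their medians were -0.01 in J10B, with 40 of 81 positive, and -0.26 in J03B, with 16 of 81 positive. In 40 members the J10A change was positive and the J03A change negative, and in 64 the J10A change was the larger. The test of that difference called 0 members in limma, where 0.0143% of all probe sets tested were called, with 26 members and 823 of all probe sets tested at an unadjusted p under 0.05.

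**Figure D2:**
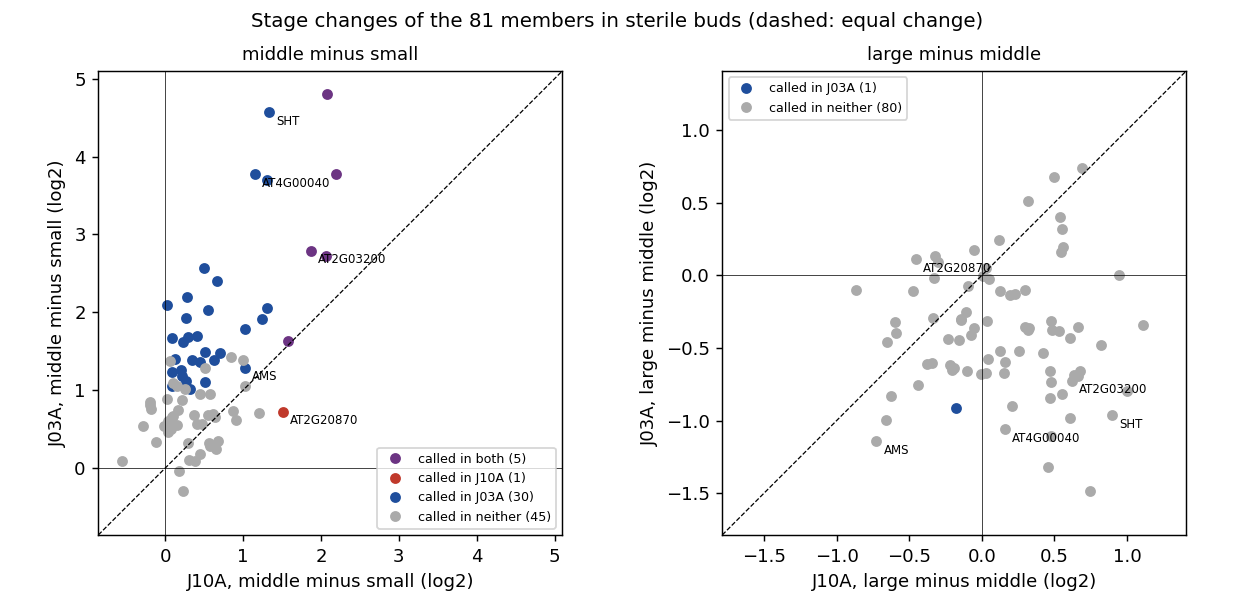
Change of each of the 81 members between size classes on the log2(signal + 113) scale in sterile J10A (x axis) against sterile J03A (y axis), for middle minus small on the left and large minus middle on the right, coloured by limma calls at an adjusted p under 0.05. On the left 68 points lie above the dashed line of equal change; on the right 64 lie below it.

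The signals of middle buds show the same gap between the sterile lines directly. The fertile lines, whose values the rule used, also stood apart there, with median levels of 10.45 in J10B and 10.69 in J03B. J10B replicates lay below J03B replicates without overlap, for SHT, AT4G00040 and the unnamed 264882_at too. A lower level in J10 middle buds was thus not particular to sterile buds. In middle buds 20 of 81 members were lower in J10A than in J03A by limma, where 1.71% of all probe sets tested were called lower. The median difference, J10A minus J03A, was -0.78 (lowest -3.14, highest 0.48), and both J10A replicates lay below both J03A replicates in 62 members, an arrangement that held for 21.3% of all probe sets tested. Without replicate 2 of J03A 8 members were called, and the call held without each of the 4 replicates in turn for 8 of the 20, SHT and AT4G00040 among them. In small buds 3 members were lower in J10A and 1 was higher, where 0.921% and 0.329% of all probe sets tested were called, with a median difference of -0.09. In large buds 7 members were lower in J10A and 1 was higher, where 1.66% and 0.993% were called, with a median difference of -0.21. At each bud size, leaving out a replicate also lowered the share of all probe sets tested that were called in either direction. The 7 calls in large buds became 3 without replicate 2 of J03A or replicate 1 of J10A and 11 without replicate 2 of J10A. The 3 calls in small buds became 1 whichever of the 4 replicates was left out.

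Fertile values chose the members, so their distance from the sterile buds of the same line is given as a description. In J10 middle buds both sterile replicates lay below both fertile replicates in 66 of 81 members and above them in none, with a median difference of -0.88. That arrangement held for 16.6% of all probe sets tested, and nothing is read from the contrast since the rule used it. In J10 large buds it held for 56 members, with a median of -0.76 and 20.0% over all probe sets tested. In J03 it held for 41 members in middle buds, with a median of -0.25 and 19.4% over all, and for 49 members in large buds, with a median of -0.38 and 20.4% over all. In small buds, 14 J10 members and 11 J03 members lay lower in both sterile replicates, where 17.4% and 19.7% of all probe sets tested did. In 14 and 17 members both sterile replicates lay higher. The share of all probe sets with that reverse arrangement was not computed, so nothing is read from those counts.

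**Figure D3:**
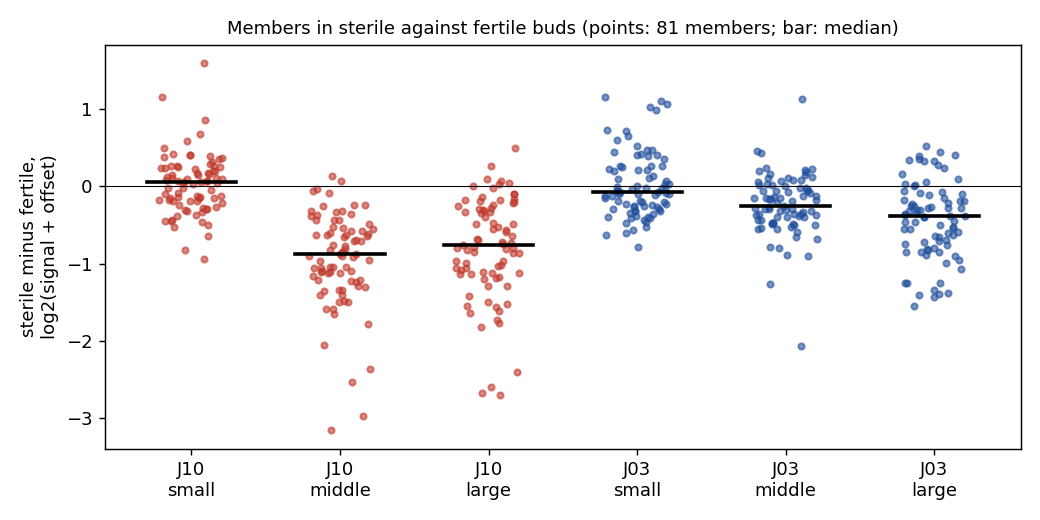
Sterile minus fertile difference of the 81 members (points, mean of 2 replicates each side, log2(signal + 113)) by line and bud size class, with the median as a bar. The medians were 0.06, -0.88 and -0.76 in J10 from small to large buds, and -0.08, -0.25 and -0.38 in J03.

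Members with a large fertile change are described apart, with no test, since the rule used that change. In 9 members, 5 of them named, the fertile change from small to middle buds averaged at least 2 log2 units over both lines. Their median change was 1.33 in J10A and 3.69 in J03A. The other 72 had a median change of 0.33 in J10A and 0.91 in J03A.

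The steepest named member was SHT, the spermidine hydroxycinnamoyl transferase of the tapetum, whose products are phenolic spermidine conjugates of the pollen coat. In small buds its signal was 182 and 411 in J10A replicates, 294 and 225 in J03A, 245 and 303 in fertile J10B and 286 and 347 in fertile J03B. In middle buds it was 637 and 1082 in J10A, 6663 and 9874 in J03A, 8249.9 and 6409 in J10B and 13589.6 and 15161 in J03B. J10A was the 1 low group there, since every replicate of the others held 6409 or more. In large buds it was 976 and 2692 in J10A, 2897 and 5830.2 in J03A, 9560.5 and 8786 in J10B and 9789 and 12758 in J03B. J10A large buds reached at most 2692, below every fertile large bud and below both J03A large replicates. SHT rose in J03A middle buds by 4.57 ± 0.36 on the log2 scale (SE, limma adjusted p = 1.6e-08), and its J10A change of 1.33 ± 0.36 was not called (adjusted p = 0.11). In middle buds it was lower in J10A than in J03A by limma, with a difference of -3.14 ± 0.36 (adjusted p = 1e-05), and the 2 changes differed by -3.24 ± 0.51 (adjusted p = 0.0051). The last call was lost when 1 replicate was left out (adjusted p = 0.3 without J03A replicate 2), whereas the J03A change and the difference in middle buds were called without each replicate.

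AMS, a basic helix-loop-helix factor that acts in the tapetum upstream of many pollen wall enzymes, had no called difference between the sterile lines in middle buds. Middle buds had 1833 and 1946 in J10A, 2178 and 2428 in J03A, 1644 and 1919 in J10B and 1904 and 2056 in J03B. Small buds had 859 and 891 in J10A, 1033 and 740.1 in J03A, 1037 and 499.6 in J10B and 909 and 1274 in J03B. Sterile and fertile buds overlapped at the small stage, and all middle buds lay between 1644 and 2428. Large buds had 1002 and 1196 in J10A and 697 and 1360.5 in J03A, against 1669 and 1650.1 in J10B and 1483 and 1574 in J03B, so both sterile lines lay below both fertile lines. AMS rose in J03A middle buds by 1.29 ± 0.27 (limma adjusted p = 0.008), a call lost with fewer replicates (adjusted p = 0.068 without J03A replicate 1 and 0.52 without J03A replicate 2), and its change of 1.02 ± 0.27 in J10A was not called (adjusted p = 0.099). The later changes of -0.73 in J10A and -1.14 in J03A were not called (adjusted p = 0.61 and 0.057), and the J10A minus J03A difference in middle buds was -0.27 (adjusted p = 0.72).

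SHT and AMS were the members found on a list of 36 tapetum and pollen wall genes, of which 7 were annotated and tested. In J10A 1 of the 7 rose between small and middle buds, where 0.364% of all probe sets tested did, and in J03A 5 rose, where 1.29% did. From middle to large buds none of the 7 was called in J10A and 2 fell in J03A, where 0.0714% were called and 0.286% fell over all probe sets tested. The gene called in J10A was A9 (AT5G07230), a tapetum gene that is no member since its fertile signal dropped after the middle stage. A9 middle buds had 4104 and 4708 in J10A, 6233 and 5624 in J03A, 6334 and 7041 in J10B and 5089 and 4678 in J03B. A9 large buds had 4183 and 4928 in J10A, 1206 and 2008 in J03A, 1063 and 2170.4 in J10B and 760.0 and 1331 in J03B. A9 was high in J10A large buds alone of the 4 groups, with a J10A minus J03A difference of 1.55 ± 0.26 there (limma adjusted p = 0.001), whereas SHT was lowest in J10A large buds.

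Summed signals of cell type markers are given as a description, since a sum over probe sets follows its brightest ones. The summed signal of 5 annotated markers out of 6 ran from 9265 to 10145 in J10A middle buds and from 17941 to 21284 in J03A, against 19563 to 19681 in J10B and 23958 to 24775 in J03B. Members SHT and AMS are 2 of those 5, and the sum of the other 3 ran from 6795 to 7117 in J10A and from 8981 to 9101 in J03A, against 9669 to 11353 in J10B and 7558 to 8464 in J03B. In large buds that sum of 3 ran from 6456 to 7016 in J10A and from 2563 to 3903 in J03A, against 2758 to 5352 in J10B and 2969 to 3803 in J03B. It holds A9 and so in part repeats it. By group means A9 made up 4406 of 6956 in J10A and 5928 of 9041 in J03A middle buds. In large buds it made up 4556 of 6736 in J10A and 1607 of 3233 in J03A. Both annotated markers of maturing pollen, of 6 fixed, summed to 507 to 851 in J10A and 409.9 to 564 in J03A large buds, against 1907 to 2052 in J10B and 2089 to 2645 in J03B. Green tissue markers, 3 annotated of 4, summed to 6416 to 7498 in J10A and 9771 to 11018 in J03A middle buds, against 7056 to 10737 in J10B and 7440 to 7639 in J03B. None of the 4 fixed pistil markers had a probe set named here, and on a longer list of 10 pistil and ovule genes SPT and INO were tested, with no call between stages in either sterile line and a median change between small and middle buds of -0.07 in J10A and -0.19 in J03A. The part of these cell types in the members' levels was not tested. The array's 3' to 5' log2 signal ratio of actin and ubiquitin, a measure of RNA integrity, averaged 0.91 ± 0.24 in J10A middle and 0.76 ± 0.03 in J03A middle buds, against 0.82 ± 0.15 in J10B and 0.64 ± 0.05 in J03B (SD, n = 2). Single arrays of middle buds spread more, from 0.63 to 1.42 in J10A, 0.61 to 0.87 in J03A, 0.60 to 0.97 in J10B and 0.20 to 1.01 in J03B. The GAPDH control was not used, since its 3' probe set lay below the array median on 38 arrays.

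AT4G00040, a type of chalcone or stilbene synthase, was low in J10A middle buds, as SHT was. Its middle buds had 583 and 706 in J10A, 3667 and 4959.9 in J03A, 4487 and 3874 in J10B and 6510.0 and 7025 in J03B. Its small buds lay between 115 and 576 in every group, and J10A was the one group of middle buds that stayed close to that range. Its large buds had 556 and 906 in J10A, 1318 and 3269 in J03A, 4758 and 5769.8 in J10B and 4326 and 7134 in J03B. In J03A middle buds it rose by 3.77 ± 0.39 (limma adjusted p = 9.6e-07) and was lower in J10A than in J03A middle buds, with a difference of -2.57 ± 0.39 (adjusted p = 0.00035). The J10A change of 1.15 was not called (adjusted p = 0.25), and the difference between the 2 changes, -2.62, had an adjusted p of 0.056.

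AT5G14700, a Rossmann-fold protein resembling cinnamoyl-CoA reductase, had 767 and 956 in J10A and 1881 and 2371 in J03A middle buds, against 1992 and 1753 in J10B and 2079.8 and 2319 in J03B. Its J10A middle buds overlapped its J10A small buds, at 789 and 814. It rose in J03A by 1.24 ± 0.21 (limma adjusted p = 0.00088), its J10A change was 0.09, and the middle buds differed by -1.23 ± 0.21 between J10A and J03A (adjusted p = 0.0015). Both calls were lost when 1 replicate was left out (adjusted p = 0.29 without J03A replicate 2 for the change, and 0.065 without J03A replicate 2 for the difference). AT1G51410, of the same fold, changed by 0.26 in J10A (adjusted p = 0.94) and rose by 1.93 ± 0.48 in J03A (adjusted p = 0.033). Its J03A middle replicates of 269.9 and 1127 were far apart, and the call was lost with 1 replicate left out (adjusted p = 0.68 without J03A replicate 2). CCOAMT, of the caffeoyl-CoA O-methyltransferase family, had close changes in both sterile lines. Its changes of 0.87 in J10A and 0.73 in J03A were not called (adjusted p = 0.059 and 0.075), and its middle buds had 922 and 975 in J10A and 1079 and 956 in J03A, against 1489 and 1415 in J10B and 1409 and 1427 in J03B. AT5G63380, of the 4-coumarate-CoA ligase-like family, changed by 0.66 in J10A and 0.24 in J03A, neither called (adjusted p = 0.41 and 0.82).

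AT5G15950 codes for an S-adenosylmethionine decarboxylase, the enzyme that supplies the aminopropyl groups of spermidine. In middle buds it held 2358 and 1731 in J10A and 3416 and 3786 in J03A, against 2527 and 2759 in J10B and 5099 and 5249.6 in J03B. Its small buds had 1415 and 1877 in J10A and 1581 and 1319.8 in J03A, against 286 and 881 in J10B and 1571 and 1500.2 in J03B. The J10B small replicates of 286 and 881 were far apart, and both lay below both J10A ones. Sterile J10A small buds lay 1.59 log2 units above fertile J10B ones. The rule used the J10B values, so that gap is a description only. In J03A it rose by 1.26 ± 0.31 (limma adjusted p = 0.03), a call lost with fewer replicates (adjusted p = 0.23 without J03A replicate 1 and 0.59 without J03A replicate 2), and its J10A change was 0.21 (adjusted p = 0.91).

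Of the members linked to lipids and membranes, AT5G58784, AT4G36640 and AT1G66850 rose in J03A and had no call in J10A. AT5G58784, of the cis-prenyltransferase family that builds long isoprenoid chains, had 825 and 1281 in J10A and 1641 and 2199 in J03A middle buds, against 1582 and 1793 in J10B and 1747 and 2023 in J03B. In large buds it held 484 and 758 in J10A and 706 and 1200.2 in J03A, against 1644 and 2674 in J10B and 1042 and 1440.4 in J03B. It rose in J03A by 2.06 ± 0.34 (limma adjusted p = 0.00053), its J10A change of 1.30 was not called (adjusted p = 0.089), and its level in large buds was lowest in J10A. AT4G36640, a Sec14-like phosphatidylinositol transfer family protein, had 807 and 1083 in J10A and 2043 and 2668 in J03A middle buds, against 2504 and 3207 in J10B and 3228 and 2606 in J03B. In J03A it rose by 1.69 ± 0.27 (adjusted p = 0.00043), and J10A lay below J03A with a difference of -1.23 ± 0.27 (adjusted p = 0.014), with no overlap of replicates. AT1G66850, of the lipid transfer protein family, rose in J03A by 1.36 ± 0.29 (adjusted p = 0.011), while its J10A change was 0.45 (adjusted p = 0.71). AT2G42990, a GDSL-type lipase, changed by 1.03 in J10A and 1.06 in J03A, and neither was called (adjusted p = 0.24 and 0.13). The calls in J03A were lost for AT5G58784 (adjusted p = 0.19 without J03A replicate 2), AT4G36640 (0.24 without J03A replicate 2) and AT1G66850 (0.078 without J03A replicate 1 and 0.53 without J03A replicate 2), and so was the difference for AT4G36640 in middle buds (0.23 without J03A replicate 2 and 0.14 without J10A replicate 1).

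AT1G42470, a Patched-like protein of the sterol transporter family, was the 1 member higher in J10A than in J03A in large buds. Signals of large buds were 2365 and 2005 in J10A and 793 and 1038 in J03A, against 4641 and 2748 in J10B and 1776 and 2427 in J03B. J10A and J03A did not overlap, with a difference of 1.29 ± 0.27 (limma adjusted p = 0.0089). Fertile J10B also lay above fertile J03B there, with no overlap of replicates. ACLA-1, a subunit of the ATP citrate lyase that makes cytosolic acetyl-CoA, was the 1 member higher in J10A than in J03A in small buds. There it had 898 and 787 in J10A and 107 and 429 in J03A, against 909 and 1016 in J10B and 431 and 214 in J03B. The fertile lines stood apart in the same order, and the difference between J10A and J03A was 1.52 ± 0.33 (adjusted p = 0.018). ACLA-1 rose in J03A by 1.38 ± 0.33 (adjusted p = 0.023), and its J10A change was 0.34 (adjusted p = 0.85). All of these calls depended on single replicates, with an adjusted p of 0.15 without J03A replicate 1 and 0.13 without J10A replicate 1 for AT1G42470, and for ACLA-1 of 0.29 without J03A replicate 1, 0.16 without J10A replicate 1 and 0.094 without J10A replicate 2 in small buds and 0.68 without J03A replicate 1 for the change.

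Of the members with cell wall roles, AT2G20870, a putative cell wall protein, was the 1 member called in J10A alone. Its small buds had 894 and 1458 in J10A, 3372 and 3675 in J03A, 1731 and 1177 in J10B and 1705 and 1635 in J03B. J03A small buds stood above every other group of small buds. Signals of middle buds were 3384 and 3665 in J10A, 5990.2 and 5771 in J03A, 4439.8 and 4650.2 in J10B and 5440.0 and 5509.8 in J03B. The large buds held 2641 and 2371 in J10A, 5865 and 6916 in J03A, 6956 and 4695 in J10B and 7870.2 and 7170.0 in J03B. It rose in J10A middle buds by 1.51 ± 0.21 (limma adjusted p = 0.00028) and was lower in J10A than in J03A, with differences of -1.53 ± 0.21 in small and -1.31 ± 0.21 in large buds (adjusted p = 0.00033 and 0.00059). The J03A change of 0.72 was not called (adjusted p = 0.075), nor was the difference of 0.79 between the J10A and J03A changes (adjusted p = 0.65), and the J10A call was lost with 1 replicate left out (adjusted p = 0.059 without J10A replicate 1) while the differences in small and large buds were not. AT5G39910, of the pectin lyase-like family, changed by 0.31 in J10A and 0.11 in J03A (adjusted p = 0.91 and 0.97). AT4G20460, of a sugar-nucleotide epimerase family, changed by 0.55 and 0.68 (adjusted p = 0.71 and 0.49).

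Among members of protein turnover, AT2G03200, of the aspartyl protease family, was the 1 named member that rose in both sterile lines. The middle buds held 993 and 2106 in J10A and 3078 and 3055 in J03A, against 2299 and 4385 in J10B and 3605 and 3322 in J03B. Its large buds had 2180.3 and 2374 in J10A and 1482 and 2221 in J03A, against 1748 and 2920.4 in J10B and 2340.4 and 2502 in J03B. J10A was low and spread at the middle stage and overlapped the fertile buds at the large stage. It rose by 1.87 ± 0.40 in J10A (limma adjusted p = 0.026) and by 2.79 ± 0.40 in J03A (adjusted p = 0.00012). Both calls were lost with 1 replicate left out (adjusted p = 0.16 without J10A replicate 1, and 0.057 without J03A replicate 2), and the J10A small buds held 119.6 in replicate 1 and 703.5 in replicate 2. AT5G04250, an OTU-type cysteine protease, rose in J03A by 1.12 ± 0.19 (adjusted p = 0.00069) and was lower in J10A than in J03A middle buds, with a difference of -0.68 ± 0.19 (adjusted p = 0.05, just under the threshold). AT4G15420, of the UFD1 family of ubiquitin-dependent degradation, had 203 and 245 in J10A and 618 and 716 in J03A large buds, against 898 and 918 in J10B and 933 and 993 in J03B. J10A lay below all of its other large buds, with a J10A minus J03A difference of -1.22 ± 0.27 (adjusted p = 0.013), and its J10A change between small and middle buds was -0.20. AT1G53025, of the ubiquitin-conjugating enzyme family, changed by 0.47 in J10A and 0.56 in J03A, and AT1G10650, a RING finger protein, by 0.58 and 0.28, with no call among these 4 changes. The calls of AT5G04250 were lost for the change (adjusted p = 0.062 without J03A replicate 1 and 0.069 without J03A replicate 2) and for the difference (0.1 without J03A replicate 1, 0.39 without J03A replicate 2 and 0.29 without J10A replicate 2), as was that of AT4G15420 (0.13 without J03A replicate 2 and 0.15 without J10A replicate 1). The AT4G15420 call was also lost with first hybridisations alone (adjusted p = 0.53), with the 6 sterile groups alone (0.066) and with hybridisations kept apart under a random replicate block (0.073).

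AT2G03850, of the late embryogenesis abundant family, rose in J03A, and its change of 0.28 in J10A was not called (limma adjusted p = 0.9). Its middle buds had 405 and 70.3 in J10A and 941 and 962 in J03A, against 1274 and 1085 in J10B and 811 and 925 in J03B. In large buds it held 441 and 539 in J10A and 862 and 1029.7 in J03A, against 1081 and 1109 in J10B and 917 and 1091 in J03B. Its J03A change was 2.20 ± 0.38 (limma adjusted p = 0.0011), with a later change of 0.00, and the difference between the J10A and J03A changes, -1.92, was not called (adjusted p = 0.31). It was lower in J10A than in J03A middle buds, with a difference of -1.76 ± 0.38 (adjusted p = 0.012). Its J10A replicates of middle buds were far apart. Both calls were lost with 1 replicate left out, the change at an adjusted p of 0.12 without J03A replicate 1 and 0.073 without J03A replicate 2, and the difference at 0.079 without J03A replicate 1, 0.11 without J03A replicate 2 and 0.19 without J10A replicate 2.

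The remaining named members had regulatory or less defined roles. RR16, a cytokinin response regulator, rose in J03A by 1.78 ± 0.28 (limma adjusted p = 0.00034), and its J10A change of 1.02 was not called (adjusted p = 0.12). In middle buds it held 905 and 769 in J10A and 1097 and 1032 in J03A, against 1018 and 972 in J10B and 889 and 1052 in J03B, so the 4 groups lay close together. AT1G76880, a trihelix-type DNA-binding protein, changed by 0.02 in J10A and 0.88 in J03A (adjusted p = 0.99 and 0.2). AT5G59480, of the haloacid dehalogenase-like hydrolases, was lower in J10A than in J03A small buds, with a difference of -1.42 ± 0.31 (adjusted p = 0.017), with 166 and 178 in J10A and 739 and 589 in J03A. The call was lost without any 1 of the 4 replicates (adjusted p = 0.13 without J03A replicate 1, 0.095 without J03A replicate 2, 0.13 without J10A replicate 1 and 0.1 without J10A replicate 2). AT1G03730, with no role given here, was lower in J10A than in J03A, with differences of -1.30 ± 0.29 in small and -1.38 ± 0.29 in middle buds (adjusted p = 0.024 and 0.011). AT1G30020, of a family with an uncharacterised domain, rose in J03A by 1.68 ± 0.30 (adjusted p = 0.0018) and was lower in J10A than in J03A middle buds, with a difference of -1.39 ± 0.30 (adjusted p = 0.014). AT3G57950 was higher in J03A middle buds, at 1395 and 1168, than in any other group of middle buds, the highest of which held 864. In J03A it rose by 2.10 ± 0.42 (adjusted p = 0.0056), and its later change of -1.32 was not called (adjusted p = 0.27). These calls too were lost with 1 replicate left out. For the J03A changes the adjusted p was 0.14 without J03A replicate 1 for RR16, 0.051 without J03A replicate 1 and 0.25 without J03A replicate 2 for AT1G30020, and 0.29 without J03A replicate 1 and 0.14 without J03A replicate 2 for AT3G57950. For the differences it was 0.23 without J03A replicate 2 and 0.1 without J10A replicate 1 for AT1G30020 in middle buds, and for AT1G03730 0.09 without J03A replicate 1, 0.23 without J03A replicate 2, 0.11 without J10A replicate 1 and 0.17 without J10A replicate 2 in small buds and 0.097 without J03A replicate 1, 0.08 without J03A replicate 2 and 0.092 without J10A replicate 1 in middle buds.

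AT5G62960 was the 1 member that fell in J03A after the middle stage. It was also called higher in J03A from small to middle buds, so the fall followed a called rise. The call of that rise was lost with first hybridisations alone (limma adjusted p = 0.14) and without J03A replicate 2. Signals of middle buds were 2791 and 2248 in J10A and 2369.8 and 3667 in J03A, against 3367 and 2727 in J10B and 2627 and 2640.2 in J03B. Signals of large buds were 2259 and 1847 in J10A and 1380.1 and 1653 in J03A, against 2846 and 2915 in J10B and 3256 and 3052 in J03B. J03A large buds lay below all the fertile large buds. The change of -0.91 ± 0.21 (limma adjusted p = 0.042) was lost without either J03A replicate (adjusted p = 0.23 without J03A replicate 1 and 0.59 without J03A replicate 2). Of the other named members, AT5G08540, with no role given here, rose in J03A by 1.49 ± 0.25 (adjusted p = 0.00073, and 0.3 without J03A replicate 2). AT3G01210, an RNA recognition motif protein, JAL33, a jacalin-type lectin, AT5G51110, of the pterin dehydratase family, AT3G46270, a receptor kinase-related protein, AT5G48210 and AT1G73200 had no call in either line between small and middle buds.

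Choices other than leaving out a replicate also ended calls. Of 47 calls of the named members and of the unnamed 264882_at and 260208_s_at, 19 were lost with the first hybridisation of each replicate alone (adjusted p of 0.056 to 0.53). Among these 19 were the difference between the changes of SHT (adjusted p = 0.1), the J03A changes of AT5G15950, AT3G57950, AT1G51410, AT1G30020, AT1G42470 and AT5G62960, and both calls of AT1G03730. With the 6 sterile groups alone 9 were lost (0.052 to 0.096), AT2G03200 in J10A and both calls of ACLA-1 among them. Testing without the filter on dim probe sets, the RNA quality covariate and the offset of 50 each ended 2 to 4 calls, the difference for AT5G04250 in middle buds every time. Quantile normalisation and the replicate block within each line ended 0 of the 47.

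**Figure D4:**
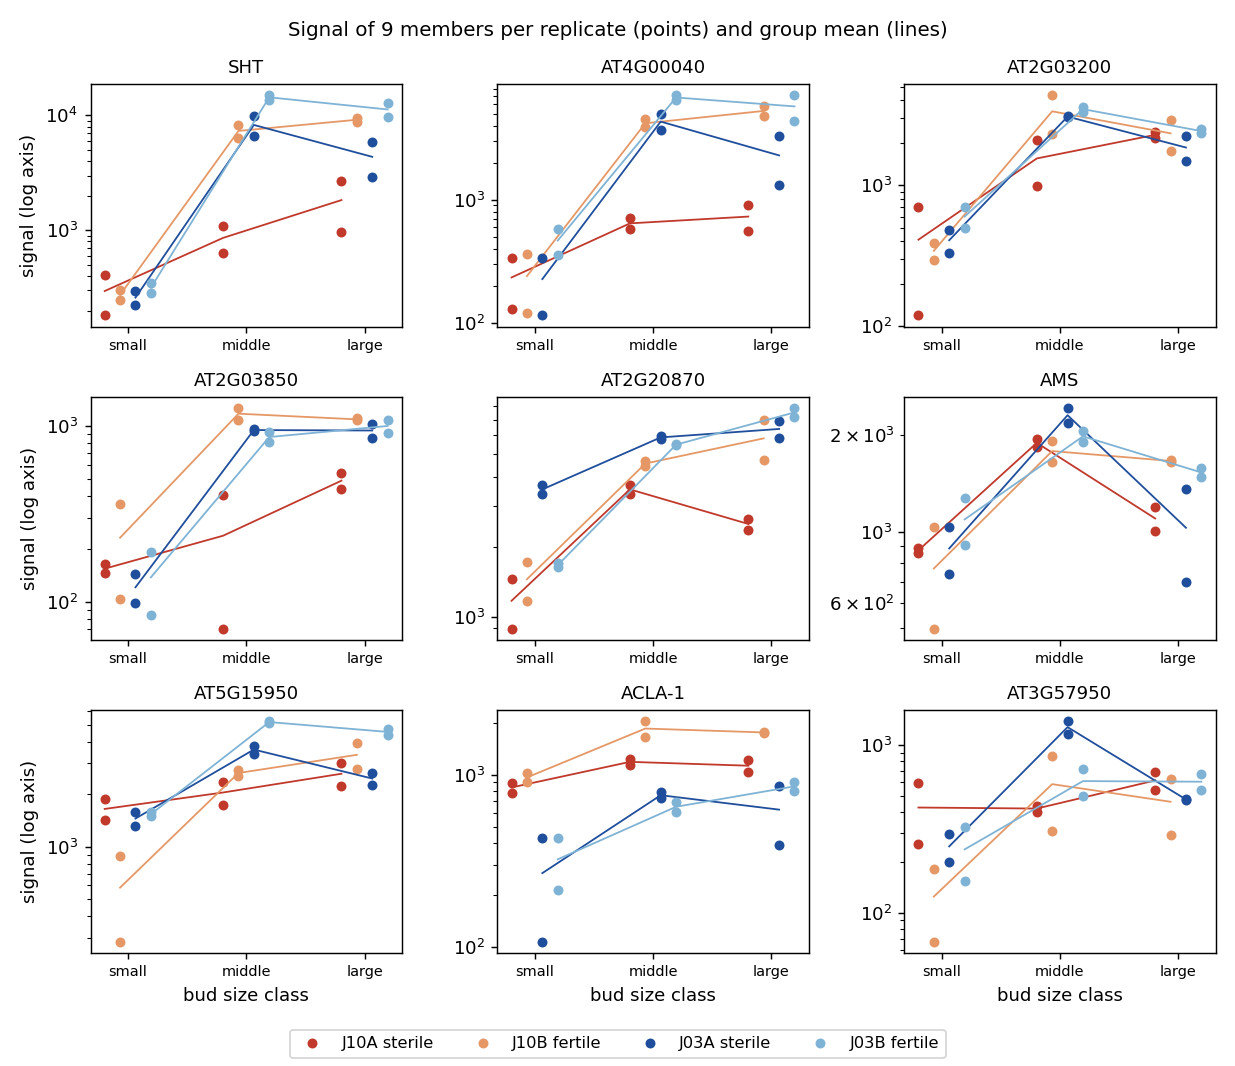
Signal (log axis, linear array units) of 9 named members by bud size class, with each of the 2 replicates per group as a point and the group mean as a line, for sterile J10A, fertile J10B, sterile J03A and fertile J03B. SHT and AT4G00040 were high in middle buds of every group but J10A, AMS was at a like level in all groups of middle buds, and AT2G20870 was high in J03A from small buds on.

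Among the 44 unnamed members, 264882_at and 260208_s_at gave the other calls of the test between the lines' changes. The middle buds of 264882_at had 1269.8 and 1309.6 in J10A, 7207 and 10943 in J03A, 7695 and 6467 in J10B and 11339 and 13642 in J03B. The large buds held 1062 and 2309 in J10A, 5114 and 7405 in J03A, 8954 and 11206 in J10B and 10107 and 12079.6 in J03B. J10A was the low group at both stages, as for SHT and AT4G00040. It rose by 2.07 ± 0.34 in J10A (limma adjusted p = 0.0023) and by 4.80 ± 0.34 in J03A (adjusted p = 2.3e-09), and the changes differed by -2.73 ± 0.48 (adjusted p = 0.012). The middle buds of 260208_s_at had 926 and 1078 in J10A, 3611 and 4392 in J03A, 3039 and 2634 in J10B and 3382 and 3356 in J03B, again with J10A lowest. It changed by 0.49 in J10A (adjusted p = 0.52) and rose by 2.56 ± 0.24 in J03A (adjusted p = 2.3e-07), a difference of -2.07 ± 0.34 (adjusted p = 0.0059). The J10A change of 264882_at had an adjusted p of 0.15 without J10A replicate 1 and 0.088 without J10A replicate 2. The difference of the changes had an adjusted p of 0.11 without J03A replicate 1, 0.054 without J03A replicate 2, 0.1 without J10A replicate 1 and 0.21 without J10A replicate 2 for 264882_at, and of 0.11 without J03A replicate 1, 0.054 without J03A replicate 2, 0.066 without J10A replicate 1 and 0.099 without J10A replicate 2 for 260208_s_at.

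The other unnamed members with a call in J10A were 260228_at, 254860_at and 263443_at. The middle buds of 260228_at had 249.8 and 1453 in J10A and 2109 and 2964 in J03A, against 2100.2 and 2091 in J10B and 3078 and 1742 in J03B, with J10A replicates far apart. Those of 254860_at had 783 and 828 in J10A and 1439 and 1331 in J03A, against 1361 and 1407 in J10B and 1935 and 1027 in J03B. Those of 263443_at had 889 and 1022 in J10A and 1598 and 1945 in J03A, against 1202 and 681 in J10B and 2377 and 2544 in J03B, where sterile and fertile J10 replicates overlapped. They rose in J10A by 2.19 ± 0.43, 2.07 ± 0.43 and 1.57 ± 0.35 (limma adjusted p = 0.014, 0.02 and 0.031), and in J03A by 3.78 ± 0.43, 2.73 ± 0.43 and 1.62 ± 0.35 (adjusted p = 5.2e-06, 0.00034 and 0.01).

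A set of 46 probe sets met the same minimum rise and signal in both fertile lines but dropped by more than 0.6 after the middle stage in both. Of the 81 members 6 rose in J10A and 35 in J03A between small and middle buds; of those 46 probe sets, 21 and 34 did, with median changes of 1.35 and 2.01. From middle to large buds 1 of the 46 fell in J10A, with a median of 0.00, and 17 fell in J03A, with a median of -1.40. In middle buds 7 of the 46 were lower in J10A than in J03A by limma, where 1.71% of all probe sets tested were called lower. Their median difference there was -0.68, against -0.78 in the members. Between the J10A and J03A changes from small to middle buds the median difference was -0.55 in the 46 and -0.67 in the members. A lower median in J10A middle buds was thus not particular to the members. No test of the difference between the members and the 46 was made, and both sets were chosen by fertile values.

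The members nearest to the thresholds lay close to probe sets that were left out. For the rise, the nearest members were JAL33 at 0.81, unnamed 254166_at at 0.81 and AT5G39910 at 0.81, and the nearest probe sets outside were 261919_at at 0.79, 264034_s_at at 0.80 and 265672_at at 0.80. For the later change in either direction, unnamed members at 0.58, 0.58 and 0.59 stood next to BAT1 at 0.61, 267544_at at 0.61 and 262176_at at 0.61 outside. For the signal, AT1G73200 at 508, AT5G39910 at 510.4 and unnamed 265002_at at 521 stood next to 249013_at at 488, AT5G19730 at 490.4 and 248232_at at 490.9 outside. AMS, with a rise of 0.82 in J03B, was among the members close to the minimum. Chosen without replicate 1 of the fertile groups the set held 89 probe sets, and without replicate 2 it held 71, and 41 of the 81 members were in it each time.

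No annotated gene of the other 12 lists was a member, which cannot show that such functions were absent from the members. They covered maturing pollen, jasmonate, cuticle, phenylpropanoids, carotenoids, photosynthesis, pistil, floral identity, sugar import, cell expansion, drought with late embryogenesis abundant genes, and senescence. With the tapetum list they held 284 genes, of which 53 were annotated, and 44 members were unnamed. Of 25 phenylpropanoid and flavonoid genes 5 were annotated. Members CCOAMT, AT5G14700, AT5G63380 and AT2G03850, with family roles near these lists, were on none of them. Arrays of 1 group correlated at 0.66 to 0.86 over log2 signals, with a median of 0.80.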

How the data were processed

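Signals of 48 arrays from 12 groups were taken from the deposited value table. The authors deposited linear signal intensities, for which the submitters' processing notes name MAS5 with no version. The table held 22810 probe sets, 64 of them array controls. A title's tech_rep was read as the second hybridisation of the replicate with its number, which the titles do not state, and all p-values reflect no more than the scatter of such replicates. In J03 the correlations between arrays did not bear out that reading. The SDs, the replicate signals and the fits with a replicate left out rest on it. Hybridisations of 1 replicate were averaged after log2(signal + 113), where 113 is the median of the arrays' 25th percentiles. Folds of dim probe sets are understated on this scale. Array number limits the precision.

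Probe sets entered the test if the mean signal reached the array median in both replicates of at least 1 group, which kept 13999, all 81 members included. Since fertile values chose the members, no contrast with fertile buds was tested. The remaining 9 contrasts among the sterile groups were taken from limma 3.58.1 in R 4.3.3, fitted to all 12 groups (12 residual degrees of freedom). P-values were adjusted by Benjamini-Hochberg over all probe sets tested and called under 0.05. The scripts were tested on simulated data. The members and gene lists were chosen with earlier results of these data known.

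The rule for naming took one-gene members with the highest fertile signal, the highest and lowest change in each sterile line or the largest line difference, members on a list, and those next to a threshold. A9 was always named. CCOAMT, RR16, AT1G03730, AT1G42470, AT1G66850, AT2G42990, AT4G20460, AT4G36640, AT5G08540, AT5G48210, AT5G62960 and the probe sets with calls fall outside it and were chosen after their values were seen. Alternatives changed the offset, the filter, the normalisation, the arrays used, the groups fitted, the replicate block and the RNA quality covariate, and left out each replicate. The array with the lowest correlation to its group was left out as an alternative added after seeing the data. It was hybridisation 2 of replicate 2 of J10A middle buds. Its mean correlation to its group was 0.67, and its median signal of 411.65 was the highest of any array. Without it, 26 members were lower in J10A than in J03A middle buds, against 20 with it. Calls in either direction there covered 4.0% of all probe sets tested, against 2.39%. The J10A rise stayed at 6 members and the differing changes at 3.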

Additional observations from a re-analysis of the deposited data

Results flagged for a closer look

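Changes between small and middle buds differed between the sterile lines by limma's test of the difference for 3 members. The J10A change minus the J03A change was -3.24 for SHT, -2.73 for 264882_at and -2.07 for 260208_s_at on the log2(signal + 113) scale. Each of these was lost when certain single replicates were left out, as given with the gene.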

How the results depend on the processing

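With either sterile replicate of a line left out in turn, the members called were 1 to 2 for the J10A rise, 12 to 18 for the J03A rise and 0 for the J03A later fall. For J10A against J03A they were 0 to 1 higher and 1 lower in small buds, 8 to 16 lower in middle buds, and 0 to 1 higher and 3 to 11 lower in large buds. For the difference between the changes they were 0 to 1. The share of all probe sets called in either direction was also lower in each of these fits than in the main one. A lone sample left in a group was assumed to vary like the others. With first hybridisations only, 0 members fell in J03A, 1 was lower in J10A than in J03A in small and 10 in middle buds, 0 were higher in large buds, and 0 changes differed. Calls in either direction there covered 0.307%, 0.6%, 1.11%, 1.51% and 0.0286% of all probe sets tested, in that order. In the main fit they covered 0.471%, 1.25%, 2.39%, 2.66% and 0.1%. With hybridisations kept apart (48 arrays, replicate block as a random effect), 11 rose in J10A, 4 fell later in J03A, 13 were lower in J10A large buds and 5 changes differed. With the 6 sterile groups alone, 0 fell later in J03A and 0 were higher in J10A small buds, where 0.393% and 1.01% of all probe sets tested were called. The RNA quality ratio as a covariate gave 0 later falls in J03A and 2 members higher in J10A large buds, and no filter gave 0 later falls. The shares called were 0.429% and 2.15% with the covariate, and 0.273% of the probe sets tested with no filter. The cause was not tested.

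Replicate numbers were not taken as pairing the samples, since not every pair of groups reached a correlation of 0.1: deviations of same-numbered groups correlated at 0.09 to 0.29 in J10, all 15 pairs of groups above 0, and at -0.04 to 0.08 in J03. A replicate block within each line gave 2 later falls in J03A, 32 members lower in J10A in middle buds, 13 in large buds and 6 differing changes. Calls in either direction rose over all probe sets tested too, to 0.736%, 3.98%, 4.51% and 0.15%. In the main fit these shares were 0.471%, 2.39%, 2.66% and 0.1%. No called value was reversed. Counting values called or not, 4192 of 4360 values of single members and 82 of 109 medians kept their call or stayed within the replicate spread. A value that was never called could hardly fail this, so that share says little about the calls. Of the 47 calls, 19 were lost with first hybridisations alone. Of 224 counts, 183 were rated the same, though the number itself could differ. The 81 members became 99 with an offset of 50 (77 shared), 80 with quantile normalisation (74 shared), 86 with first hybridisations (49 shared) and 89 with the minimum taken over both lines (81 shared).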
